A study of Mus musculus with 8 samples.

Results

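Prostaglandins are lipid signals made from arachidonic acid, and this section follows the mouse genes of their synthesis, breakdown and E-type receptors through liver tissue of mice that received the carcinogen DMBA. The genes were Pla2g4a, Ptgs1, Ptgs2, Ptges, Ptges2, Ptges3, Ptgds, Ptger2, Ptger4 and Hpgd, 10 in all, and each was read from the array probe that the platform table assigns to it. Of these, 9 had a probe, 1 each, among 19321 genes with a probe, and all 9 were among the 16800 genes tested. Ptgs1, which encodes the constitutive cyclooxygenase, had no probe under its symbol or gene number in that table and was not analysed here.

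Total RNA was labelled with Cy5 and read on 8 single-colour arrays. Every animal had been given DMBA at 4 to 5 days of age and then kept for 30 weeks on normal diet or high fat diet. The groups were liver on normal diet (2 mice, numbered 117 and 120), non-tumour liver on high fat diet and tumour tissue on high fat diet (3 mice each, numbered 117, 186 and 1). By their labels, tumour and non-tumour tissue of one number were cut from a single liver. The number 117 on a normal diet liver pairs it with no high fat diet tissue, since each label gives 1 diet. All 3 groups carry the DMBA treatment, so no comparison here shows the effect of DMBA itself. The labels give neither strain nor sex, and each tissue is a mixture of cells, in which fewer cells of a type and less RNA per cell cannot be told apart.

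Levels below are the authors' normalized intensity, a linear brightness on which the median listed probe of each array is 25, given as mean ± SD or array by array. Intensities of different probes are not compared with each other. Log2 fold changes come from 1 limma fit of all 8 arrays, are given ± SE, and passed the test at an adjusted p below 0.05. No term for the mouse was in this fit, so tumour and non-tumour tissue of the same mouse were treated as independent. A block by mouse was tried as an alternative. The fit adds a fixed offset to every signal, so the fold changes of dim genes are understated there, and array values or ratios of mean intensity are given for such genes.

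Cytosolic phospholipase A2, encoded by Pla2g4a, frees arachidonic acid from membranes, and the cyclooxygenases convert it to prostaglandin H2. Terminal synthases then make prostaglandin E2 (Ptges, the inducible microsomal enzyme, with Ptges2 and Ptges3) or prostaglandin D2 (Ptgds). Prostaglandin E2 signals through cyclic AMP at the receptors encoded by Ptger2 and Ptger4, and Hpgd, the hydroxyprostaglandin dehydrogenase, inactivates it after uptake into cells. In earlier work with DMBA and obesity in mice, prostaglandin E2 made with the inducible cyclooxygenase of senescent hepatic stellate cells was linked to weakened antitumour immunity through Ptger4, which is the question these genes bear on.

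By size of fold change the largest difference among the 9 measured genes was in breakdown: Hpgd was lower in the tumours than in the liver around them and in normal diet liver. Ptges2, with a smaller fold change, had the lower adjusted p in both comparisons. Of the 9 measured genes 3 passed the test between tumour and non-tumour tissue, all lower in tumours (Hpgd, Ptges2 and Ptges3), where 25.4% of all genes passed and 13.4% were lower. The rate-limiting inducible cyclooxygenase gene Ptgs2, both receptor genes and Pla2g4a stayed dim and did not pass in any of the 3 comparisons. Ptges, the partner synthase of Ptgs2, was brighter, at 12.4 to 21.6, and did not pass in any of them either. The median log2 fold change of the 9 genes was -0.09, against -0.01 over all genes tested. On GRCm38.p6 Hpgd lies at chr8:56294552-56321046, Ptges2 at chr2:32395890-32402740 and Ptges3 at chr10:128058982-128077254, per RefSeq.

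Hpgd was at 781, 762 and 928 in the non-tumour tissue of mice 117, 186 and 1 and at 234, 334 and 152 in the tumours of the same mice. Each tumour was below every non-tumour sample, as in 23.3% of the genes listed on all 6 of those arrays. The ratio of tumour to non-tumour intensity was 0.299, 0.438 and 0.163 in mice 117, 186 and 1, so the tumour of mouse 186 kept the most signal and that of mouse 1 the least. Group means were 824 ± 90.4 and 240 ± 91.5 (SD, n = 3 each), with a log2 fold change of -1.47 ± 0.26 (adjusted p 0.00815). In normal diet liver Hpgd was at 887 and 794, within the range of non-tumour tissue (log2 fold change of non-tumour over normal diet 0.15 ± 0.29, adjusted p 0.837, and a ratio of 0.980 in the deposited means). Tumours were lower than normal diet liver as well (-1.32 ± 0.29, adjusted p 0.0169), a call that ended without normal diet array 117 (0.0983) or 120 (0.0797) and with a fit of just those tissues (0.0592). All alternatives spanned 0.000465 to 0.313. Tumours were thus the lowest of the 3 groups, and the other groups did not differ beyond their spread.

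Ptges2, a membrane-associated prostaglandin E synthase, fell in the tumours by less. It was at 78.9, 78.4 and 87.7 in non-tumour tissue of mice 117, 186 and 1 and at 50.9, 56.7 and 61.2 in their tumours. Every tumour lay below every non-tumour sample, as in 23.3% of the genes listed on all 6 of those arrays, and tumour over non-tumour intensity was 0.645, 0.723 and 0.698 in mice 117, 186 and 1. Means were 81.7 ± 5.23 and 56.3 ± 5.16, and the log2 fold change was -0.30 ± 0.04 (adjusted p 0.00356). Normal diet livers, at 96.8 and 107, lay above all high fat diet arrays. Without overlap, 31.7% of listed genes were lower in non-tumour tissue than in normal diet liver, and 40.1% in tumours. The step from normal diet to non-tumour tissue did not pass the test (-0.12 ± 0.05, adjusted p 0.223), and that from normal diet to tumour did (-0.41 ± 0.05, adjusted p 0.00158).

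Ptges3 encodes the cytosolic prostaglandin E synthase, better known as the HSP90 co-chaperone p23. Its intensity was 116, 126 and 151 in non-tumour tissue of mice 117, 186 and 1, 72.9, 106 and 80.0 in the tumours and 121 and 123 on normal diet. Each tumour lay below all 5 other arrays, with tumour 186 closest to them. Of listed genes, 23.3% were lower without overlap in tumours than in non-tumour tissue and 40.1% than in normal diet liver. Tumour over non-tumour intensity was 0.631, 0.838 and 0.529 in mice 117, 186 and 1. The log2 fold change between tumour and non-tumour was -0.37 ± 0.10 (adjusted p 0.0355). That call was fragile. With the mouse as a block the adjusted p was 0.0806, and it was 0.0633 without normal diet array 117 or 120 or with a fit of just those tissues, 0.103 and 0.0943 when the tumour of mouse 117 or 1 was left out, and 0.0895 and 0.105 when the non-tumour sample of mouse 186 or 1 was, and all alternatives spanned 0.00811 to 0.919. Neither comparison with normal diet liver passed (tumour -0.20 ± 0.11, adjusted p 0.235, and 0.0419 without tumour array 186, and all alternatives spanned 0.0419 to 0.923; non-tumour 0.17 ± 0.11, adjusted p 0.447).

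These 3 calls depended on how the local background was treated. With the background reading next to each spot taken off in place of the blank spots, 136 of 16800 genes passed between tumour and non-tumour tissue, and the adjusted p was 0.372 for Hpgd, 0.808 for Ptges2 and 0.919 for Ptges3. Hpgd and Ptges2 kept their direction there and Ptges3 did not (log2 fold change 0.20).

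**Figure D1:**
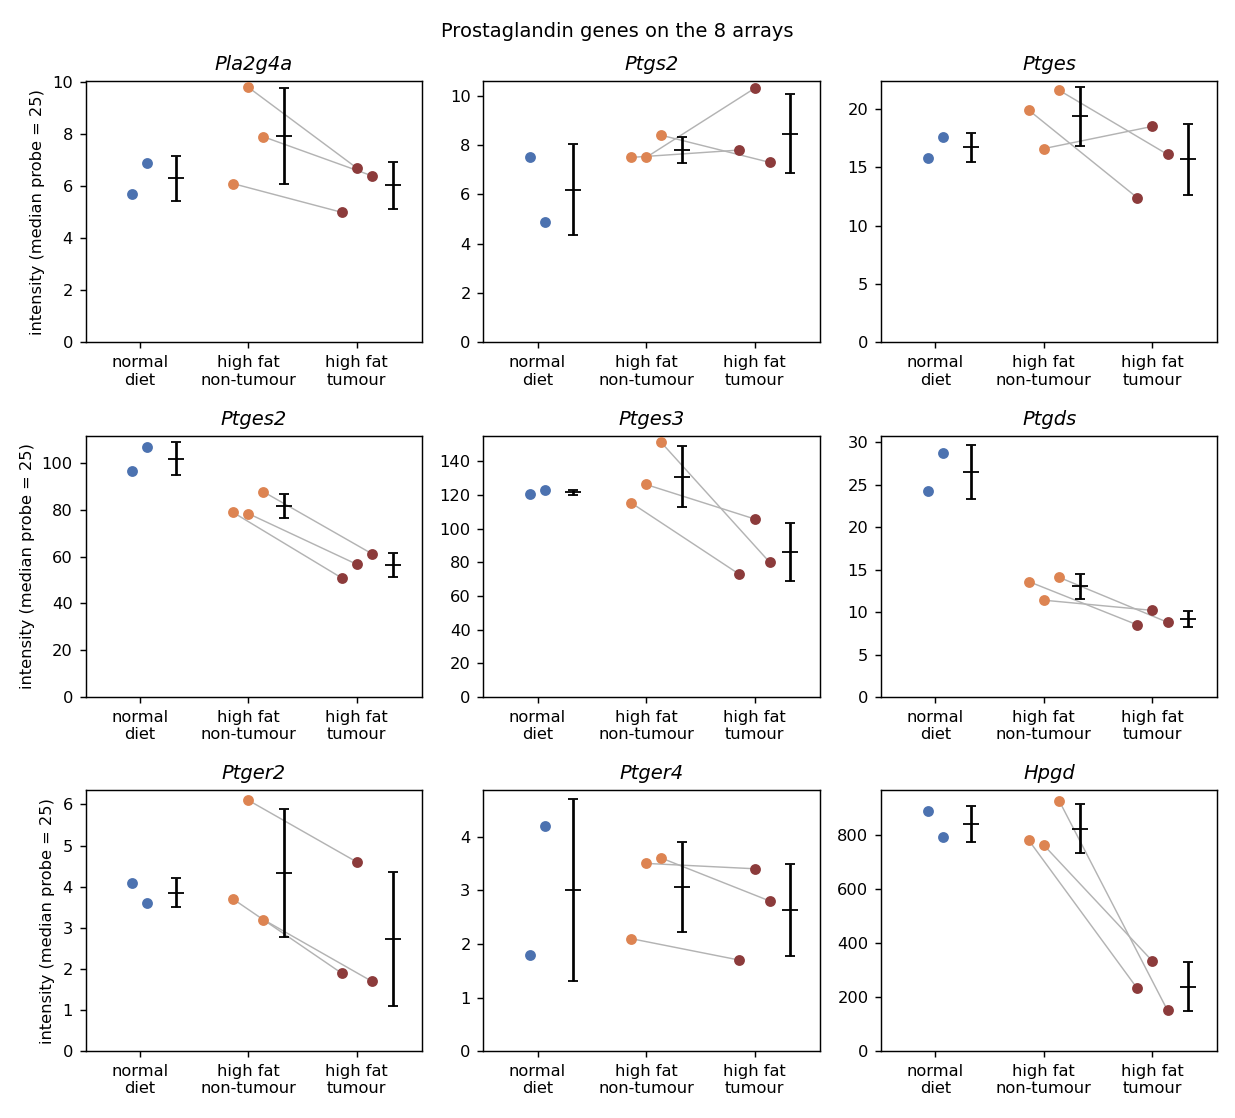
Normalized intensity (linear axis from 0, median listed probe of an array = 25) of the 9 measured prostaglandin genes in normal diet liver (blue, n = 2), non-tumour tissue (orange, n = 3) and tumour tissue (dark red, n = 3). Points are arrays, black bars are mean ± SD, and grey lines join tissue of the same mouse. Hpgd, Ptges2 and Ptges3 were lower in each tumour than in the tissue around it, and Ptgds was highest on normal diet.

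The stretches before the annotated starts of the 3 genes that were lower in tumours, and of the inducible Ptgs2 that was not, are shown for their sequence. They are the 250 bases before the RefSeq start on GRCm38.p6, all on the plus strand, for Hpgd at chr8:56294302-56294551, Ptges2 at chr2:32395640-32395889, Ptges3 at chr10:128058732-128058981 and Ptgs2 at chr1:150099781-150100030. Capitals mark matches to any of 6 short motifs on either strand.
Hpgd: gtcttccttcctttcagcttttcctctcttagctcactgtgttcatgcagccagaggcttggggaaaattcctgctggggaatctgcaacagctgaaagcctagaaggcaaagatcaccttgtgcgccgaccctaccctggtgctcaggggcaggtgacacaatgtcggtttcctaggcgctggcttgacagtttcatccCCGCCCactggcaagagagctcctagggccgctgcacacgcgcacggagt
Ptges2: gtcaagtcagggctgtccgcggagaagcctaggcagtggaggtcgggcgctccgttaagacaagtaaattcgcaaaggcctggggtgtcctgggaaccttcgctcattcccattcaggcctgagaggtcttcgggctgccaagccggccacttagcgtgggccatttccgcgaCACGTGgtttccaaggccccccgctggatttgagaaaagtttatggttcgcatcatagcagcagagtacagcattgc
Ptges3: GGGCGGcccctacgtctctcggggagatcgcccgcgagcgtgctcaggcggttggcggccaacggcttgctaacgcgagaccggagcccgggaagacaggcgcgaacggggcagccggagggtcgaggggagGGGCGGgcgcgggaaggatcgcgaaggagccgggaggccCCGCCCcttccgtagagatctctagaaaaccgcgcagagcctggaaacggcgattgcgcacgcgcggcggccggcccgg
Ptgs2: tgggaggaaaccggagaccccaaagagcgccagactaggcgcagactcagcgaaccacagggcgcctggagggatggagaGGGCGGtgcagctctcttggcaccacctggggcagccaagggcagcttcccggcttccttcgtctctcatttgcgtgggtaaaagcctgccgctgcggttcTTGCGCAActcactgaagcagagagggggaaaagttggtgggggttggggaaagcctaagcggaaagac

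The motifs were the TATA box (TATAAA), the CCAAT box (CCAAT), the GC box (GGGCGG), the E-box (CACGTG), the core of the cyclic AMP response element (TGACG) and the C/EBP palindrome (TTGCGCAA), searched on both strands from 250 bases before to 50 bases after the start. The GC box stood in the windows of Hpgd, Ptges3 and Ptgs2 and in 35.7% of all 32851 windows of that length, and Ptges3, with a GC content of 73.2%, held 3 copies before its start and 1 after it. The E-box stood in those of Ptges2 (bases 77 to 72 before the start) and Ptgs2 (bases 17 to 22 after it, overlapping a TGACG core on the opposite strand at bases 14 to 18) and in 7.15% of all windows. TTGCGCAA, 69 to 62 bases before the start of Ptgs2, occurred in 0.183% of all windows. TATAAA stood at bases 5 to 10 after the annotated start of Hpgd, and in 13.6% of all windows. No motif of the 6 was common to the windows of Hpgd, Ptges2 and Ptges3, and these matches are letters, not measured sites.

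Ptgs2, encoding the cyclooxygenase induced by inflammation, was dim in every group. It was at 7.50, 7.50 and 8.40 in non-tumour tissue of mice 117, 186 and 1, at 7.80, 10.3 and 7.30 in the tumours and at 7.50 and 4.90 on normal diet. All groups overlapped, and the ratio of tumour to non-tumour went both ways among mice (1.04, 1.37 and 0.869 in mice 117, 186 and 1). These values lay 4.20 to 13.3 standard deviations of the blank spots above the blank level. The log2 fold change of tumour over non-tumour was 0.02 ± 0.03 (adjusted p 0.734). It was 0.05 ± 0.03 from normal diet to non-tumour tissue (adjusted p 0.352) and 0.07 ± 0.03 from normal diet to tumour (0.121, with a ratio of mean intensities of 1.37), and none of the 3 passed in any alternative tried.

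Ptges, the microsomal synthase that is induced together with Ptgs2, was at 19.9, 16.6 and 21.6 in non-tumour tissue of mice 117, 186 and 1, at 12.4, 18.5 and 16.1 in the tumours and at 15.8 and 17.6 on normal diet. Tumours 117 and 1 were below their own non-tumour tissue (ratios 0.623 and 0.745) and tumour 186 was above it (1.11). The groups overlapped, and the log2 fold change between tumour and non-tumour was -0.09 ± 0.04 (adjusted p 0.106).

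Pla2g4a was at 6.10, 9.80 and 7.90 in non-tumour tissue, at 5.00, 6.70 and 6.40 in the tumours of the same mice (117, 186 and 1) and at 5.70 and 6.90 on normal diet. All 3 tumours read below their own non-tumour tissue (ratios 0.820, 0.684 and 0.810), yet the groups overlapped and the fold change did not pass (-0.05 ± 0.03, adjusted p 0.304).

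Both receptor genes were close to the floor of the arrays. Ptger2 was at 3.70, 6.10 and 3.20 in non-tumour tissue of mice 117, 186 and 1, at 1.90, 4.60 and 1.70 in the tumours and at 4.10 and 3.60 on normal diet. Tissue of mouse 186 was the highest of its group on both occasions, and each tumour was at 0.514 to 0.754 of its own non-tumour tissue. Ptger4 was at 2.10, 3.50 and 3.60 in non-tumour tissue, at 1.70, 3.40 and 2.80 in tumours and at 1.80 and 4.20 on normal diet. The 96 negative control spots of an array had medians of 0.222 to 0.863 and 95th percentiles of 1.59 to 2.57 on the same scale, so the lowest receptor values lie among the brighter negative controls. Between tumour and non-tumour tissue the log2 fold change was -0.05 ± 0.03 for Ptger2 (adjusted p 0.332) and -0.02 ± 0.03 for Ptger4 (0.760). Neither passed, and the smallest difference that could pass at this brightness was not tested. With the arrays scaled to the same median both passed as lower in tumours than on normal diet (adjusted p 0.0323 and 0.0467; all alternatives spanned 0.0323 to 0.937 and 0.0467 to 0.953), which they did under no other alternative.

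**Figure D2:**
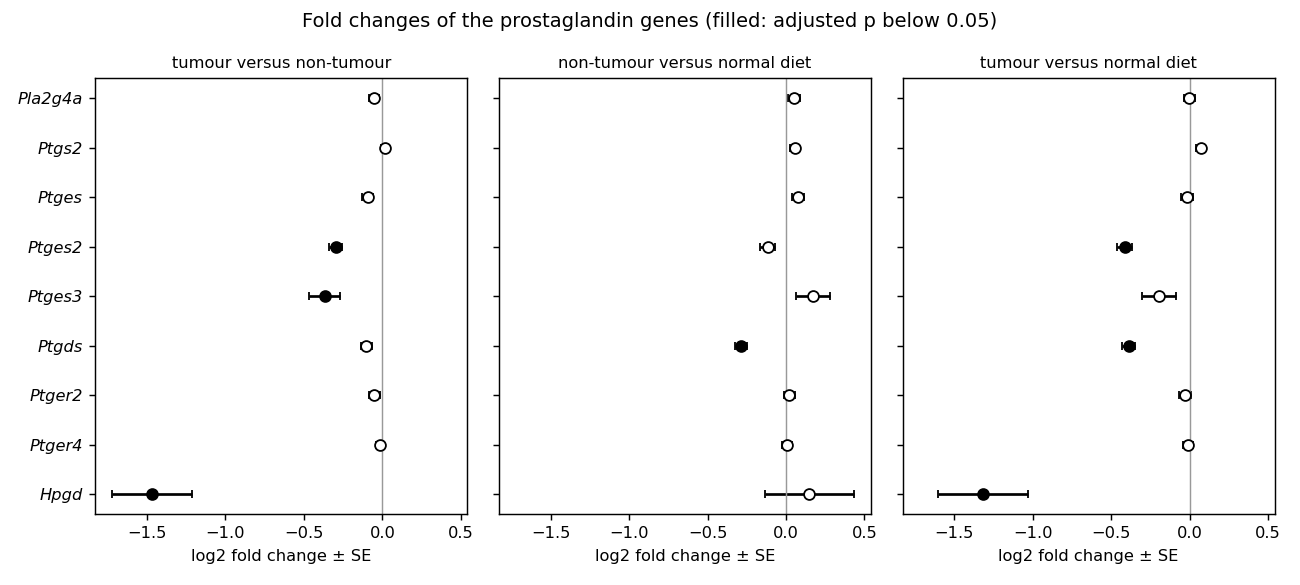
Log2 fold changes ± SE of the 9 measured genes from the fit of all 8 arrays, with the 3 comparisons as panels on a common axis. Filled points passed at an adjusted p below 0.05: Hpgd, Ptges2 and Ptges3 between tumour and non-tumour tissue, Ptgds between non-tumour tissue and normal diet, and Hpgd, Ptges2 and Ptgds between tumour and normal diet.

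Between diets a single gene of the 9 passed, Ptgds, the lipocalin-type prostaglandin D synthase, where 3.84% of all genes passed and 2.03% were lower. It was at 24.3 and 28.8 in the normal diet livers 117 and 120, at 13.6, 11.4 and 14.1 in non-tumour tissue of mice 117, 186 and 1 and at 8.50, 10.2 and 8.80 in the tumours. The groups did not overlap in any of the 3 comparisons, and normal diet liver was highest. Of listed genes, 31.7% were lower without overlap in non-tumour tissue than in normal diet liver and 40.1% in tumours than in normal diet liver. Between tumour and non-tumour tissue the share was 23.3%. The intensity of non-tumour tissue was 0.491 times that of normal diet liver, with a log2 fold change of -0.29 ± 0.04 (adjusted p 0.0193). That call ended on leaving out normal diet mouse 120 (0.0835) or the non-tumour sample of mouse 117 (0.0542), 186 (0.0629) or 1 (0.0518), and all alternatives spanned 0.00847 to 0.999.

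Tumours were at 0.345 times the Ptgds intensity of normal diet liver (-0.39 ± 0.04, adjusted p 0.00128). Tumour against non-tumour did not pass (-0.10 ± 0.04, adjusted p 0.0844), but did with the smaller offset of 16 (0.0479), with arrays scaled to the same median (0.0474), and with a fit of just those tissues or without normal diet array 117 or 120 (0.0399 each), and all alternatives spanned 0.0399 to 0.873. Between tumour and normal diet liver 3 of the 9 genes passed, Hpgd, Ptges2 and Ptgds, all lower, where 27.8% of all genes passed and 14.9% were lower. The median log2 fold change of the 9 genes was 0.05 between diets and -0.03 between tumour and normal diet, against -0.01 over all genes in the latter. With the deposited values 1705 of 5443 genes that passed there were higher, against 2162 of 4671 after quantile normalization. The comparisons share arrays, so these calls are not independent of those given above.

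Array brightness moved with diet. The factor that scales an array to its median of 25 was 0.773 to 0.832 on the normal diet arrays and 1.11 to 1.29 on the high fat diet arrays, and its part in the difference of Ptgds was not tested. On the deposited scale the median gene listed on all 8 arrays was at 0.922 of its normal diet value in non-tumour tissue and at 0.877 in tumours, a shift of -0.12 and -0.19 log2 units, and Ptgds lay below it in both. With the arrays scaled to the same median 1084 of 1403 genes that passed between diets were higher, against 304 of 645 after quantile normalization and 372 of 1111 with the deposited values, and Ptgds passed as lower each time.

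For each gene that passed, the 3 genes with the closest profile over the 8 arrays were found from log2 values centred on each gene's mean, by the root mean square difference. Closest to Hpgd were Pbld2 (0.12), Trp53i13 (0.15) and Setd1b (0.16), where Hpgd itself ranged over 2.18 log2 units. For Ptges2, with a range of 0.51, they were 2310011J03Rik (0.03), Amt (0.04) and Tsacc (0.04). For Ptges3, with a range of 0.59, they were E2f6 (0.04), Pex14 (0.05) and the macrophage growth factor receptor gene Csf1r (0.06). For Ptgds, with a range of 0.46, they were Zbtb40, 1700019N19Rik and 4732471J01Rik (0.03 each), all of which were dim and, like Ptgds, brightest on normal diet.

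Other genes of prostaglandin uptake and breakdown moved in both directions. Of 7 tested genes of the transport and breakdown list 2 were higher in tumours than in non-tumour tissue and 3 were lower, beside 12% and 13.4% of all genes. Slco2a1, the prostaglandin transporter that takes the lipid into cells, was at 37.7, 29.9 and 39.2 in non-tumour tissue of mice 117, 186 and 1 and rose to 114, 74.0 and 163 in their tumours (1.02 ± 0.20, adjusted p 0.0115). Normal diet livers, at 155 and 133, were in the range of the tumours, and non-tumour tissue at 0.247 times their mean lay below them without passing (-1.10 ± 0.22, adjusted p 0.0503). Of listed genes, 31.7% lay lower without overlap in this comparison. The difference of Slco2a1 passed in 8 of 17 alternatives, which spanned 0.00350 to 0.999. Slco2a1 thus read low in non-tumour tissue on high fat diet and high in the other 2 groups.

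Ptgr1 and Ptgr2 encode reductases that act on the product of Hpgd. Ptgr1 was at 65.7, 81.1 and 64.0 in non-tumour tissue of mice 117, 186 and 1 and rose to 114, 115 and 224 in their tumours (0.79 ± 0.20, adjusted p 0.0291). With the mouse as a block its adjusted p was 0.0992, and it was 0.0549 without normal diet array 117 or 120 or with a fit of just those tissues, and 0.0846, 0.0518 and 0.0906 when the non-tumour sample of mouse 117, 186 or 1 was left out, and all alternatives spanned 0.00976 to 0.408. Ptgr2, named after its values were seen, was at 228, 248 and 232 in non-tumour tissue and fell to 157, 170 and 152 in the tumours (-0.35 ± 0.07, adjusted p 0.0110). The reductases therefore went in opposite directions in the tumours, with no overlap between tumour and non-tumour tissue for either (15.2% of all genes were higher in this way and 23.3% lower). Akr1c6, an aldo-keto reductase, and Cyp4a12a, which hydroxylates arachidonic acid, were the other genes of this list that were lower in tumours (-1.68 ± 0.20 and -1.80 ± 0.33). With the reading beside each spot taken off, the direction of Ptgr2 (0.30) and Akr1c6 (0.24) turned.

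**Figure D3:**
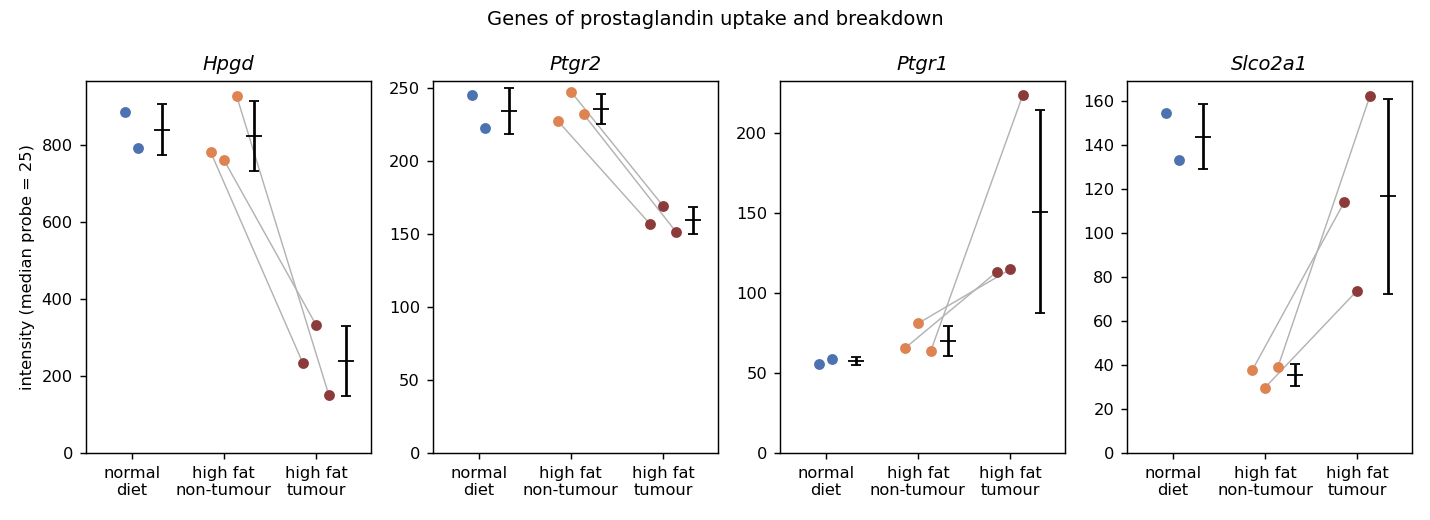
Normalized intensity (linear axes from 0, median listed probe of an array = 25) of Hpgd, Ptgr2, Ptgr1 and the transporter gene Slco2a1 on the 8 arrays, with mean ± SD in black and grey lines joining tissue of the same mouse. Hpgd and Ptgr2 were lower in all 3 tumours than in their own non-tumour tissue, and Ptgr1 and Slco2a1 were higher.

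A wider list held 78 symbols of arachidonate metabolism, 68 with a probe and 61 tested. In tumours 7 of 61 were higher and 17 lower than in non-tumour tissue, with a median log2 fold change of -0.04, beside 12% of all genes higher and 13.4% lower with a median of -0.01. With the reading beside each spot taken off, 3 of the 61 passed in that comparison. The lower genes were most frequent in the arm that makes and removes epoxides of arachidonic acid, where 6 of 8 fell with a median of -1.31. Among them were the epoxygenase genes Cyp2j5 (-2.13 ± 0.11, adjusted p 0.000203) and Cyp2c38 (-1.88 ± 0.35, 0.0107) and Ephx2, the soluble epoxide hydrolase (3631 ± 454 to 936 ± 273, -1.67 ± 0.24, adjusted p 0.00428). Ephx1, the microsomal epoxide hydrolase, fell by 0.94 log2 units (adjusted p 0.00412). Ephx1 was higher in non-tumour tissue than in normal diet liver (0.85 ± 0.15, adjusted p 0.0376), a call kept in 8 of 17 alternatives. Between tumours and normal diet liver it did not pass (-0.09 ± 0.15, adjusted p 0.692). In that comparison 5 of 8 genes of the epoxide arm were lower in tumours, beside 14.9% of all genes.

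Among 19 tested genes of arachidonate release 3 were higher and 5 lower in tumours than in non-tumour tissue, beside 12% and 13.4% of all genes. Mgll, the monoacylglycerol lipase that frees arachidonic acid in liver, was at 943, 843 and 1028 in non-tumour tissue of mice 117, 186 and 1 and at 255, 301 and 179 in the tumours (-1.59 ± 0.19, adjusted p 0.00229). It lay at 459 and 536 on normal diet, between the other groups. Plaat3, the phospholipase of adipose tissue, went the other way, from 62.0, 75.0 and 48.8 to 160, 167 and 168 (1.06 ± 0.11, adjusted p 0.00158). Plaat3 was at 100 and 128 on normal diet, also between the other groups. Tumours were above that by 0.59 ± 0.13 log2 units (adjusted p 0.0166), and non-tumour tissue lay below it without passing (-0.46 ± 0.13, adjusted p 0.110). Pla2g12b rose from 423 ± 49.9 to 737 ± 147 (0.97 ± 0.12, adjusted p 0.00233).

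Pla2g2e, a secreted phospholipase, had no listed value on any of the 5 arrays outside the tumours and was at 21.9, 7.10 and 35.2 in the tumours of mice 117, 186 and 1. By the mean of their log2 values the tumours were at least 12.6-fold higher than non-tumour tissue. The lowest listed signal of each non-tumour array, 1.4 on average, was the bound. Tumour 186, at 7.10, was less far above that bound than this mean. It was tested because all 3 tumour arrays listed it, so it entered through the group where it is high, and its adjusted p is not given. Without it 2 of 18 genes of arachidonate release and 6 of 60 of the wider list were higher.

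Of 7 tested genes of the terminal synthases 1 was higher in tumours than in non-tumour tissue and 0 were lower in the limma fit. The other prostanoid receptors gave 0 calls among 4 tested genes. Of all genes 12% were higher and 13.4% lower. In the limma fit an unadjusted p under 0.05 was reached by 1 synthase gene as lower and by 0 receptor genes. The synthase call was Akr1c18, an aldo-keto reductase that acts on progesterone and on prostaglandins (5.43 ± 0.33). Its intensity was 131, 57.1 and 24.3 in non-tumour tissue of mice 117, 186 and 1 and 4238, 2887 and 4908 in their tumours. Of 16 genes of the leukotriene arm 1 was higher and 3 were lower, near the 12% and 13.4% of all genes. Alox5, which starts leukotriene synthesis, was listed in 1 of 3 non-tumour samples (3.40, mouse 1) and at 40.5, 17.6 and 50.2 in the tumours of mice 117, 186 and 1 (0.78 ± 0.16, adjusted p 0.0147). Cyp4f14, which degrades leukotriene B4, fell from 624 ± 99.6 to 128 ± 35.5 (-1.83 ± 0.23, adjusted p 0.00270). Mgst3, a membrane glutathione transferase, fell from 520 ± 66.3 to 215 ± 26.4 (-0.94 ± 0.14, adjusted p 0.00421). On normal diet Mgst3 was at 255 and 268, and tumours did not differ from that beyond the spread (0.04 ± 0.15, adjusted p 0.893).

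**Figure D4:**
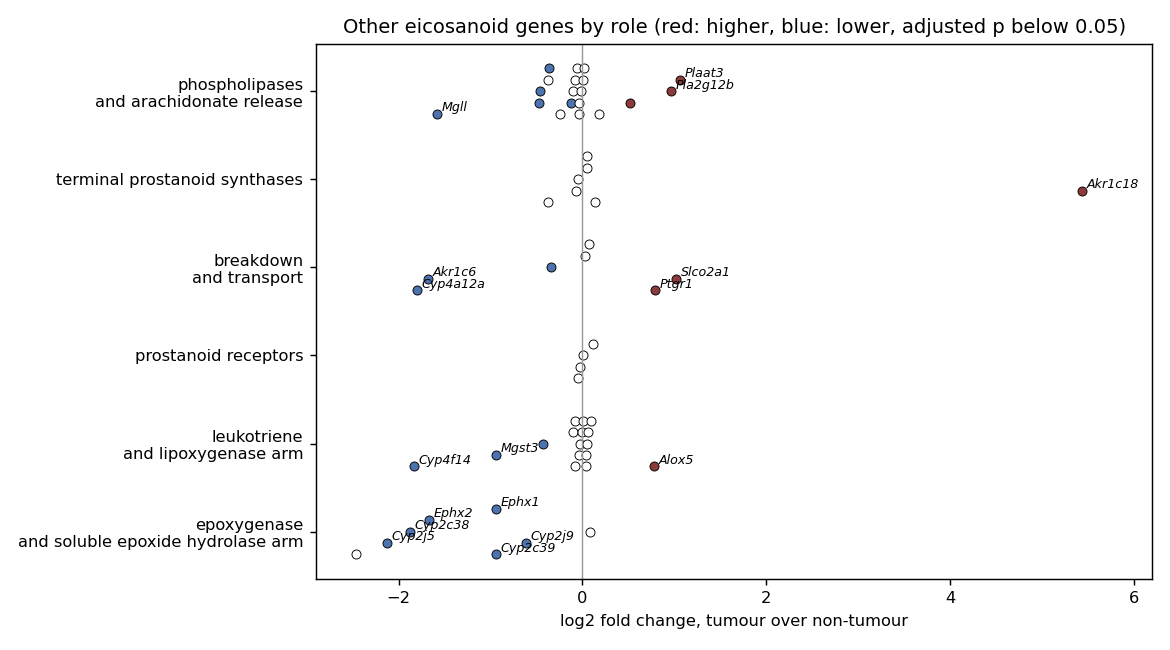
Log2 fold change of tumour over non-tumour tissue for the 61 tested genes of the wider list, by role, each point 1 gene. Red and blue points passed as higher and lower, white points did not pass, and names are given to called genes beyond 0.6 log2 units in either direction. In the epoxygenase arm 7 of 8 genes lie left of 0 and 6 of 8 passed as lower.

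Between diets 3 genes of the wider list were higher in non-tumour tissue and 2 lower, beside 1.81% of all genes higher and 2.03% lower. The count of 5 fell to 0 when normal diet mouse 117, normal diet mouse 120 or the non-tumour sample of mouse 186 was left out, to 2 for either sample of mouse 117 and to 1 for the non-tumour sample of mouse 1. It was 8 and 9 when the tumour of mouse 186 or of mouse 1 was left out. Mgst3 was among the higher genes (0.98 ± 0.15, adjusted p 0.0256) and Cyp4a12a among the lower (-2.50 ± 0.37, adjusted p 0.0217). The adjusted p of Mgst3 was 0.158 when normal diet mouse 117 was left out, 0.131 for normal diet mouse 120, 0.0667 for non-tumour mouse 186 and 0.0665 for non-tumour mouse 1, and all alternatives spanned 0.00486 to 0.878. For Cyp4a12a the adjusted p was 0.103 and 0.143 when normal diet mouse 117 or 120 was left out and 0.0670 when non-tumour mouse 186 was, and all alternatives spanned 0.00433 to 0.704.

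Between tumours and normal diet liver 8 genes of the wider list were higher and 13 lower, beside 12.9% and 14.9% of all genes. The total of 21 was 9 without normal diet array 117 and 13 without 120. Among the terminal synthases 3 were higher in tumours than in normal diet liver and 1 lower. Akr1c18 was higher by 6.19 ± 0.37 log2 units (adjusted p 0.000250). Cbr3, a carbonyl reductase, was at 19.5 and 18.6 on normal diet and at 66.0, 127 and 64.7 in the tumours of mice 117, 186 and 1 (1.06 ± 0.21, adjusted p 0.0122). Cbr3 was also at 67.2, 67.5 and 96 in their non-tumour tissue, in the range of the tumours (tumour over non-tumour 0.14 ± 0.19, adjusted p 0.676). Non-tumour against normal diet did not pass for Cbr3 (adjusted p 0.0687), but did in 5 of 17 alternatives. Prxl2b, a prostaglandin F synthase, fell from 256 and 256 to 158, 122 and 115 (-0.54 ± 0.13, adjusted p 0.0223). The call on Cbr3 ended without normal diet mouse 117 (0.0744) or 120 (0.0692), and its alternatives spanned 0.000522 to 0.656. That on Prxl2b ended without normal diet mouse 117 (0.0984), normal diet mouse 120 (0.115) or the tumour of mouse 186 (0.0550) and with a fit of just those tissues (0.0729), and its alternatives spanned 0.000939 to 0.558. Hpgds, the haematopoietic prostaglandin D synthase of mast cells and macrophages, was at 3.10 and 2.50 on normal diet and at 8.90, 11.8 and 12.1 in the tumours of mice 117, 186 and 1 (a ratio of mean intensities of 3.90, log2 fold change 0.23 ± 0.04, adjusted p 0.0107). Non-tumour tissue, at 7.90, 11.6 and 7.30, lay above normal diet liver as well without passing (adjusted p 0.0806). The call on Hpgds ended without normal diet array 117 (0.0632) or 120 (0.0674) and with arrays scaled to the same median (0.0704), and all alternatives spanned 0.000979 to 0.551. On normal diet arrays 117 and 120 the negative controls had 95th percentiles of 2.29 and 1.96 and highest values of 7.14 and 2.57. Both Hpgds readings there lay between these, close to the floor. Of the prostaglandin D synthase genes, Ptgds thus read lower in tumours than in normal diet liver. Hpgds read higher, from normal diet readings near the floor on 2 arrays.

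Markers of the cells that the tissue can hold were read beside these genes. Between tumour and non-tumour tissue 12% of all genes passed as higher and 13.4% as lower. All 8 hepatocyte markers were listed on every array, and their summed intensity was 145055 to 148232 in non-tumour tissue, 163197 to 175013 in tumours and 185075 to 189613 on normal diet. The brightest markers dominate that sum, and single markers differed: of 8 tested, Apoa1 (0.86 ± 0.12) and Serpina1a (0.71 ± 0.08) were higher and Cps1 (-1.07 ± 0.29) lower in tumours than in non-tumour tissue, and Tat, at 0.350 times its non-tumour intensity, did not pass (adjusted p 0.0628). All 12 macrophage and Kupffer cell markers were listed as well, with a sum of 2607 to 3010 in non-tumour tissue, 1274 to 1974 in tumours and 1734 to 2209 on normal diet. Of them 3 were lower in tumours than in non-tumour tissue, namely Clec4f, Vsig4 and Cd5l. The rest did not pass and stood at 0.0952 (Marco) to 0.962 (Adgre1) times their non-tumour intensity. Stellate cell and fibroblast markers summed to 1492 to 2178 in non-tumour tissue, 1164 to 1874 in tumours and 1004 to 1110 on normal diet. Of 9 tested, 1 was higher (Col3a1) and 1 lower (Lrat) in tumours than in non-tumour tissue. Endothelial markers summed to 724 to 797 in non-tumour tissue and 474 to 721 in tumours, with 1 of 8 tested higher (Pecam1). The brightest, Clec4g, dominates that sum and went from a mean of 499 to 295 without passing (adjusted p 0.103). The median log2 fold change of the endothelial markers was 0.07. Mast cell and basophil markers summed to 103 to 124 and 90.8 to 136, and of 6 tested the mast cell protease gene Cpa3 was higher in tumours. The others of the 6 did not pass, and the median log2 fold change of the 6 was -0.01. Both red blood cell markers tested were lower in tumours, with a sum of 108 to 118 against 336 to 400 in non-tumour tissue, and 1 of 4 mesothelial markers, Msln, was higher at 3.79 times its non-tumour intensity. The other mesothelial markers did not pass and stood at 0.505 (Upk3b), 0.825 (Upk1b) and 0.960 (Wt1) times theirs. The adipocyte marker Adipoq was listed on no array. The part of these cells in the levels of Hpgd, Ptges2, Ptges3, Ptgds and Hpgds was not tested.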

How the data were processed

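The data were 8 single-colour arrays of mouse liver RNA. The deposited values are an intensity per spot: recomputed from the deposited scanner output, they equal the spot's median brightness minus the mean of the blank spots, divided by a factor that sets the median listed value to 25, with values near the blank level left empty. Probes were named through the platform's probe-to-gene table, in which 20690 of 23473 probes had 1 symbol, and a gene was read from its probe with the highest mean over the arrays. For the tests, spot medians were corrected with limma's normexp model on the blank spots with an offset of 50, quantile normalized and put on the log2 scale (limma 3.58.1, R 4.3.3). Genes without a listed value on every array of at least 1 group were left out, which kept 16800. One group-means fit with empirical Bayes moderation gave the 3 comparisons, with Benjamini-Hochberg adjustment over all 16800 genes, and the code was tested on simulated data. The number of arrays limits the precision, and nothing beyond the mouse numbers shows how replicates were taken. Genes named in the text were the members, genes with the closest profile, and, in the wider list, genes from among the up to 4 called genes of largest change per role and comparison; Ptgr2, marker genes and genes given for their other comparison were named after their values were seen. The members and all gene lists were chosen with earlier results of these data known. Same-numbered tumour and non-tumour tissue deviated together (r of 0.443, 0.148 and 0.167 over genes for mice 117, 186 and 1, against -0.275 to 0.028 between mice), so the mouse was tried as a block. Other alternatives were the background correction, offset, scaling, filter, samples fitted and each array left out. Positions and upstream sequences are from RefSeq tables of GRCm38.p6, in which all 10 members matched; the build of the probe design is not given in the sources used here.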

Additional observations from a re-analysis of the deposited data

How the results depend on the processing

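Apart from the use of the local background reading, the 450 recomputed values of the 9 genes stayed on their side of the threshold in 427 cases, lost a call in 15 and gained one in 8. The fold change took the opposite sign in 15 of the 450, all of them for differences that had not passed. With normexp run on the reading beside each spot in place of the blanks, 0 of the 9 genes passed in tumour against non-tumour tissue, 0 in non-tumour against normal diet and 0 in tumour against normal diet, and 3, 0 and 1 of the wider list. Over all genes 136, 3 and 224 passed with it, in the same order. The reading beside each spot followed its own spot (rank correlation 0.902 to 0.960). Among genes that had passed and are named in the text, the direction turned under it for Ptges3 (0.20), Ptgr2 (0.30) and Akr1c6 (0.24) between tumour and non-tumour tissue and for Pla2g12b (-0.071) between tumour and normal diet. Of the 9 genes' differences that had not passed, 10 took the opposite sign under it. The cause was not tested. With the arrays scaled to the same median 5 of the 9 genes passed between tumour and normal diet. Over all genes 6854 passed there, against 4671 in the fit used above. Between diets the wider list had 10 calls with the offset of 16, 11 with the same median, 11 with the deposited values and 3 with no filter. Over all genes these alternatives gave 813, 1403, 1111 and 543 calls, against 645 in the fit used above. With the mouse number as a replicate block 2 of the 9 genes and 23 of the wider list passed between tumour and non-tumour tissue, where 3484 of all genes passed. With the block and the offset of 16, an alternative chosen after seeing the data, 3 and 27 passed, beside 4513 of all genes. Leaving out each array gave 2 to 3, 0 to 1 and 2 to 4 calls among the 9 genes in the 3 comparisons, in the order above, and 19 to 23, 0 to 9 and 9 to 23 in the wider list. A block by slide or scan was not run, since no such field was used here. Signal over background limits the receptor genes, Ptgs2 and Pla2g4a most, and the normal diet group rests on 2 arrays.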
